A study of Mus musculus with 6 samples.

Results

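The genes of DNA replication and mitosis were read across 3 groups of arrays. The set holds 51 genes, 31 that act in DNA replication and 20 that act in mitosis. They were chosen by symbol, as the probe sets whose gene symbol in the annotation of the authors' deposited table was 1 of the 51. These made up 58 of 28350 probe sets, and 51 of the 21759 symbols in the annotation. Of the members, 6 had several probe sets, and the brightest by mean over the 6 arrays stood for the gene. All 51 passed the filter on low values that left 16252 genes for testing.

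The series set the transcription factors EBF1 and Pax5 side by side in B-lineage progenitors of the mouse. All 3 groups are 1 cell line, an Ebf1-/- line at the pre-pro-B stage, cultured over an OP9 stroma in the cytokines IL-7, flt3-ligand and SCF, 10 ng/ml of each. Control cells were transduced with the MigR1 retrovirus, EBF1 cells with MigY-EBF1 and Pax5 cells with MigR-Pax5, and RNA was taken 24 h later on 2 arrays per group. All groups thus carry the Ebf1-/- genotype, and EBF1 cells alone received an EBF1 vector. Since the cells come from 1 line, and nothing in the labels says that arrays 1 and 2 are separate transductions, p-values here speak only of the spread among these 6 samples, and that spread may be technical.

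Cells license each origin of replication before S phase by loading the MCM helicase, then fire the origins and copy both strands with a set of polymerases, a sliding clamp and enzymes that join the fragments of the lagging strand. Genes for this machinery are switched on at the border of G1 and S phase, largely through E2F factors. Genes of mitosis, which encode cyclins, kinases, motors and the spindle checkpoint, are switched on later, in G2, through a complex that binds CHR elements together with the factor NF-Y. Early B-lineage progenitors divide in response to IL-7, and EBF1 and Pax5 act in these cells as the factors of B-cell specification and commitment.

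The vectors were checked by the genes they carry. Ebf1 lay at 8.87 on both Control arrays, at 9.88 and 9.96 on the EBF1 arrays and at 8.92 and 8.87 on the Pax5 arrays, on the log2 scale of the array values. Pax5 lay at 4.93 and 5.10 in Control, at 6.01 and 6.17 in EBF1 cells and at 11.42 and 11.33 in Pax5 cells. Each gene was thus highest in the cells given its vector, and Pax5 was also higher in EBF1 cells than in Control (difference 1.07, SE 0.10, limma adjusted p = 0.0043). The Ebf1 signal in Control shows only that this probe set is read in a line labelled Ebf1-/-, since the sources used here do not place it relative to the deleted part. Of 12 progenitor markers, 11 were tested, and the pan-leukocyte gene Ptprc (9.53 to 9.86) and Flt3 (9.52 to 10.05) were bright on every array. Of the 11, 4 were called lower with EBF1 (36.4%, against 5.62% of all genes) and 4 with Pax5 (36.4%, against 4.29%). With either factor 0 were called higher. Those called lower with EBF1 were Kit (-0.99), Cd93 (-0.50), Il7r (-0.39) and Dntt (-1.75), on the log2 scale. Those called lower with Pax5 were Il7r (-0.79), Rag1 (-0.63), Flt3 (-0.50) and Dntt (-1.27). Ly6a (0.52), Rag1 (0.37) and Tcf3 (0.25) lay above Control on both EBF1 arrays without passing. Tcf3 (0.23), Kit (0.16) and Cd34 (0.11) did so on both Pax5 arrays. Between EBF1 and Pax5 cells 3 of the 11 were called higher and 3 lower (54.5%, against 13.9% of all genes). The summed linear value of the progenitor markers was 7003 and 7069 in Control, 5635 and 5775 in EBF1 cells and 6243 and 6321 in Pax5 cells. Spi1 was not found under this symbol. Of 16 markers of the OP9 stroma, 14 were tested. Their summed linear value was 861 and 884 in Control, 1107 and 1119 in EBF1 cells and 935 and 1088 in Pax5 cells, and Bgn, a matrix proteoglycan, was called higher with EBF1 (0.62, adjusted p = 0.017). The part of stromal RNA, or of the fall in progenitor markers, in the results below was not tested. Array 1 minus array 2 had an SD over all genes tested of 0.152 (Control), 0.16 (EBF1 group) and 0.262 (Pax5 group). Over the 51 members it was 0.08, 0.097 and 0.149.

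The promoters of the members were examined for the elements named above, because replication and mitosis genes are known to be controlled through different ones. RefSeq windows (GRCm38.p6) from 250 bases before to 50 bases after the start were at hand for 42 of the 51 members, 25 of replication and 17 of mitosis, and for 27025 genes in all. The letters searched on both strands were TTCCCGC or TTGGCGC for the E2F core, TTTGAA for the CHR element, CCAAT for the NF-Y box and CCCNNGGG for a pair of EBF half-sites. The reverse of the E2F core TTGGCGC can overlap a CCAAT box by its last bases. Where a gene had several windows, a match in any of them counted. An E2F core was found in 14 of 25 replication members (56.0%) and in 3 of 17 mitosis members (17.6%), against 7.8% of all genes. A CHR element was found in 12 of 17 mitosis members (70.6%) and in 3 of 25 replication members (12.0%), against 20.2% of all genes. The NF-Y box was present in 15 of 17 mitosis members (88.2%) and 13 of 25 replication members (52.0%), against 41.1%. The pair of EBF half-sites was found in 20.0% of the replication members, 11.8% of the mitosis members and 15.4% of all genes. A match is a description of these letters, and shows neither binding nor its absence.

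**Figure D1:**
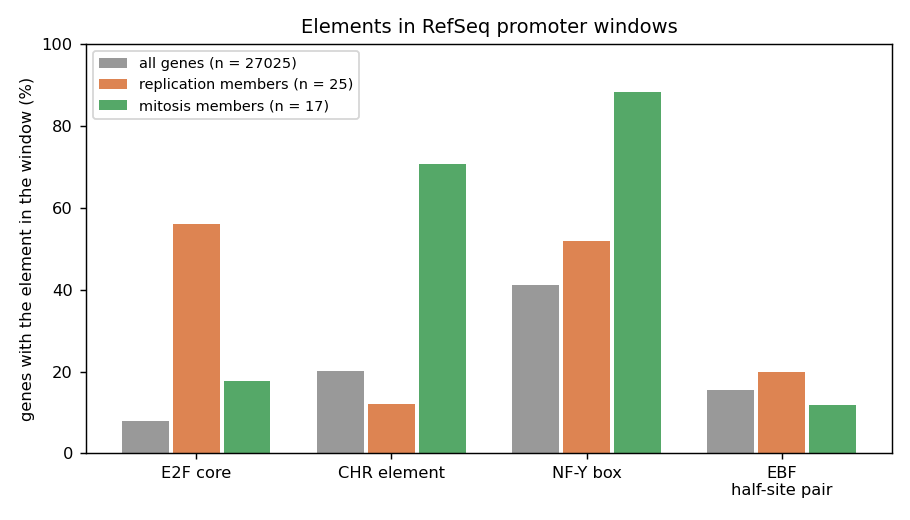
Share of genes (percent, vertical axis from 0) whose RefSeq promoter window holds each of 4 elements (horizontal axis), for all 27025 genes (grey), the 25 replication members with a window (orange) and the 17 mitosis members with a window (green). The E2F core is most frequent among replication members (56.0%), the CHR element (70.6%) and the NF-Y box (88.2%) among mitosis members, and the EBF half-site pair is at 11.8% to 20.0% in each set.

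Promoters are shown for 4 members: Mcm5 and Pold1, replication genes that were called higher in EBF1 cells than in Pax5 cells, Kif23, the mitosis member that was, and Cdk1, a mitosis gene called in no comparison. Each is the 250 bases before the start, 5′ to 3′ on the gene's strand, with the matches of the 4 searches in capitals. Mcm5 lies on the plus strand at chr8:75109259-75109508, Pold1 on the minus strand at chr7:44548816-44549065, Cdk1 on the minus strand at chr10:69352913-69353162 and Kif23 on the minus strand at chr9:61946800-61947049.
Mcm5: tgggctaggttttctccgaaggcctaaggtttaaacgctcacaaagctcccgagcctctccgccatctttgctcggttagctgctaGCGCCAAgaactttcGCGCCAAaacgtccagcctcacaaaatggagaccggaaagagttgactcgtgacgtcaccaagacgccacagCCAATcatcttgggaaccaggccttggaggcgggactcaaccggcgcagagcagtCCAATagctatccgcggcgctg
Pold1: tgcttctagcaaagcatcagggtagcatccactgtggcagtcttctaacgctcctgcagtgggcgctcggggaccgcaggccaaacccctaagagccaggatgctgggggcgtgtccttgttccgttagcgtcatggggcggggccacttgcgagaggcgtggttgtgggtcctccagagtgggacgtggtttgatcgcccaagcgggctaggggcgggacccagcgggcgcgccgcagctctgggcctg
Cdk1: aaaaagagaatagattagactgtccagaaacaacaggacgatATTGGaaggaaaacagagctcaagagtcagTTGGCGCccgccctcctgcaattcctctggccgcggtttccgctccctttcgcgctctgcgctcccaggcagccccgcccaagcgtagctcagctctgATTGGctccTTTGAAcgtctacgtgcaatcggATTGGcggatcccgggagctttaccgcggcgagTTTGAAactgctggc
Kif23: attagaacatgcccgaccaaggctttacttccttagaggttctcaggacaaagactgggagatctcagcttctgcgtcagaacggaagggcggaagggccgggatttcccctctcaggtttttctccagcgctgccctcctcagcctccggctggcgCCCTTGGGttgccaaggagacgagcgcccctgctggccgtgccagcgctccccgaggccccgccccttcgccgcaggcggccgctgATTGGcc
Counting from the start, with the first transcribed base as 1, Mcm5 has E2F cores that begin at -164 and -149, followed by NF-Y boxes. Pold1 has no match in this stretch, and its E2F core begins at 40, past the bases shown. Cdk1 has an E2F core at -178, CHR elements at -71 and -15 and NF-Y boxes at -208, -80 and -48. Kif23 has an EBF half-site pair at -93 and an NF-Y box at -7, and its CHR element begins at 3, past the bases shown.

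**Figure D2:**
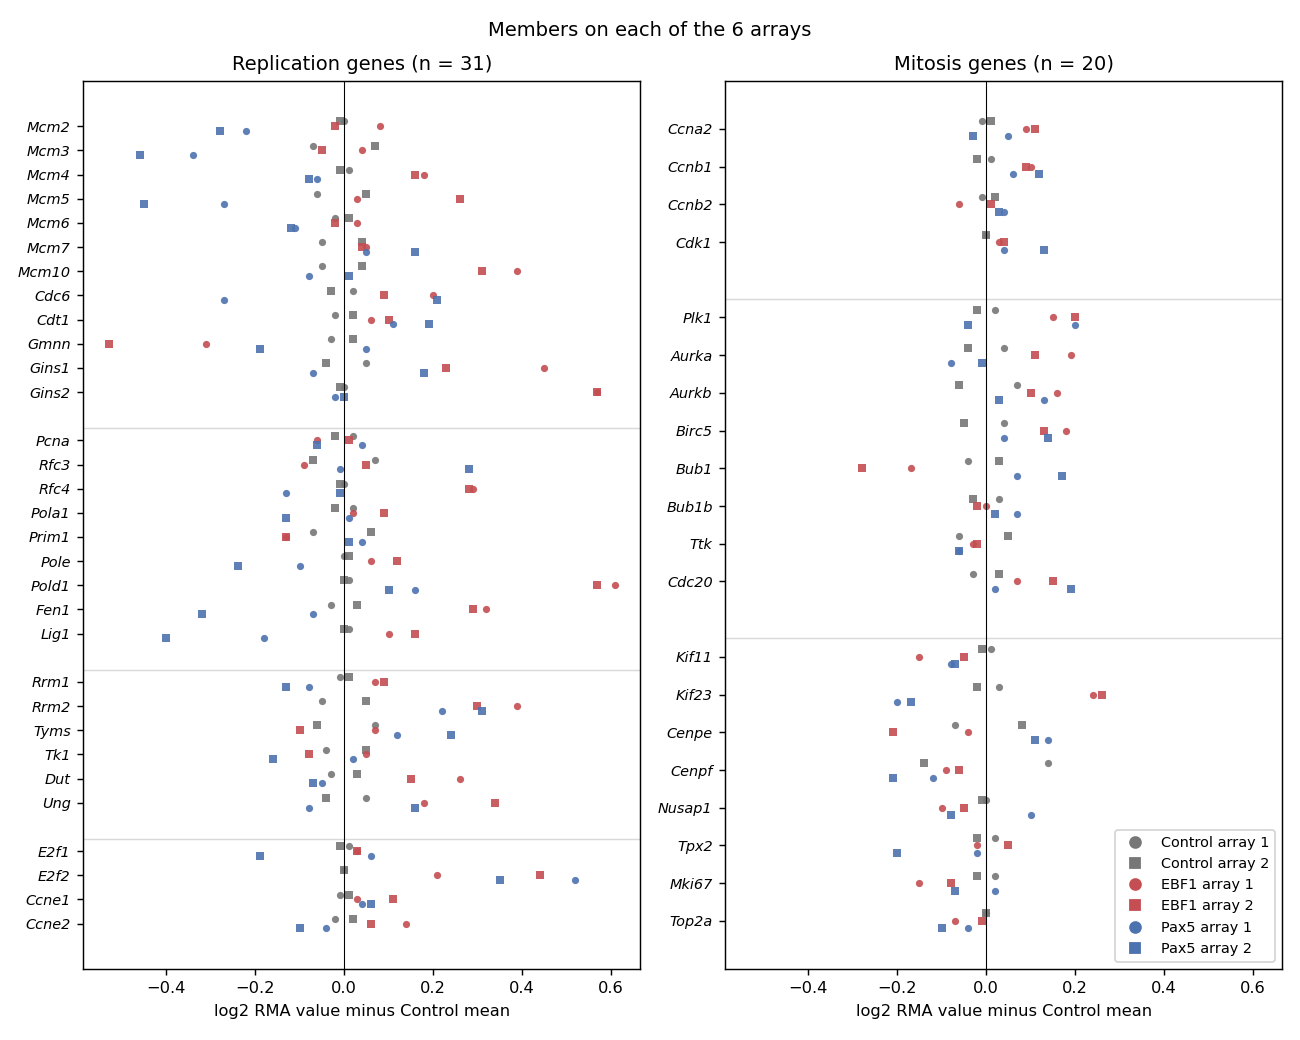
Log2 RMA value on each of the 6 arrays minus the mean of the Control arrays (horizontal axis), for the 31 replication members (left) and the 20 mitosis members (right); colour is the group, circles are arrays 1 and squares arrays 2, and lines divide the role groups. EBF1 points of Gins2 and Pold1 lie 0.57 or more to the right of the Control mean, Pax5 points of Mcm3 and Mcm5 lie to its left, and most mitosis points stay within 0.2 of it.

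EBF1 cells were first compared with Control, to ask whether EBF1 changed these genes. Gins2, which encodes a subunit of the GINS complex of the replicative helicase, and Pold1, the catalytic subunit of DNA polymerase delta, rose about 1.5-fold. The remaining members did not pass. Called at an adjusted p of 0.05 were thus 2 of 51 members, both higher and both of replication (3.9%), where 5.62% of all genes tested were called, 3.1% higher and 2.53% lower. The share of the members lay below that of all genes. In bulk RNA, a change in the part of cells in S phase and a change in RNA per cell cannot be told apart.

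Gins2 lay at 7.55 and 7.54 on the Control arrays, at 8.12 on both EBF1 arrays and at 7.53 and 7.55 on the Pax5 arrays. It was higher on both EBF1 arrays than on any other array, by 0.57 over Control (SE 0.07, limma adjusted p = 0.01). Its probe set (10582190, chromosome 8) carries Gse1 as a second symbol, so the RNA it reads is uncertain. The probe sets of Gse1 alone differed by 0.23 (adjusted p = 0.18) and 0.45 (adjusted p = 0.11), in limma over every probe set. Pold1 (probe set 10562818, chromosome 7) lay at 7.13 and 7.12 in Control, at 7.73 and 7.69 in EBF1 cells and at 7.28 and 7.22 in Pax5 cells. Pax5 cells were between the others, and EBF1 cells exceeded Control by 0.58 (SE 0.07, adjusted p = 0.011). Both calls ended when either Control array or either EBF1 array was left out, where the adjusted p reached 0.12 for Gins2 and 0.13 for Pold1, with differences of 0.56 to 0.60. Leaving out the probe sets with several symbols removed Gins2 and left 1 member called.

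Next to the threshold stood 3 replication genes. Mcm10, which helps to activate the loaded helicase, lay at 6.66 and 6.75 in Control, 7.10 and 7.02 in EBF1 cells and 6.63 and 6.72 in Pax5 cells (EBF1 minus Control 0.35, SE 0.08, limma adjusted p = 0.065). Rrm2, the regulated subunit of ribonucleotide reductase, lay at 8.90 and 9.00, then 9.34 and 9.25, then 9.17 and 9.26 in the same order of groups. Its EBF1 and Pax5 arrays were both above the Control arrays, by 0.35 (adjusted p = 0.075) and 0.27 (adjusted p = 0.15). Rfc4, a subunit of the clamp loader, differed by 0.29 with EBF1 (adjusted p = 0.098), and its probe set also carries Eif4a2, whose own probe set differed by -0.17.

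Read as a group, the replication members had a median difference of 0.09 between EBF1 and Control, with 24 of 31 above 0, beside 0.01 and 52.1% over all genes. In 20 of the 31 both EBF1 arrays lay above both Control arrays, where this held for 30.2% of all genes. The median was 0.12 for the 12 licensing and helicase genes, 0.09 for the 9 polymerase, clamp and strand-joining genes, 0.14 for the 6 genes of nucleotide supply and uracil removal, and 0.09 for the 4 E2F and E cyclin genes. The 20 mitosis members had a median of 0.00, with 10 above 0 and 9 with EBF1 arrays above Control. All their differences lay between -0.22 and 0.25, and their 95% intervals between -0.43 and 0.42.

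**Figure D3:**
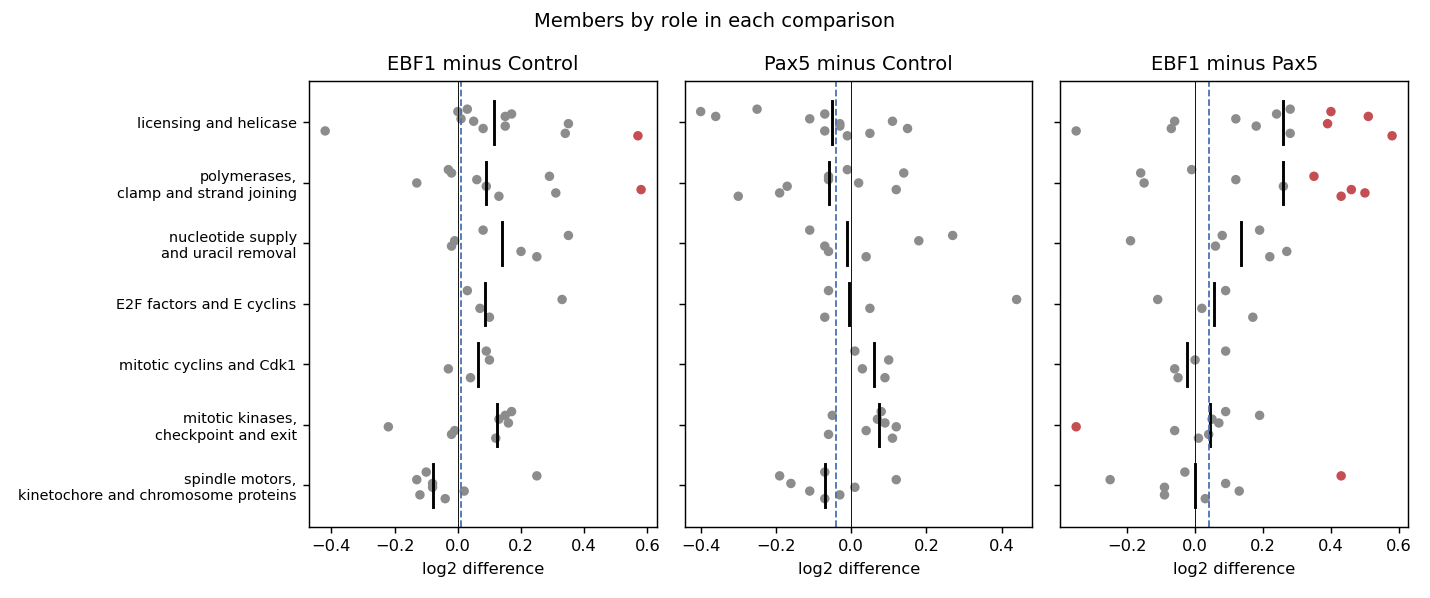
Log2 difference of each member (points) in 7 role groups (vertical axis) for EBF1 minus Control, Pax5 minus Control and EBF1 minus Pax5; red points are called at an adjusted p of 0.05, black bars are role medians and the dashed line is the median of all genes tested. The 8 red points of replication in the right panel lie in the licensing and helicase row and the polymerase row, and the mitosis rows hold 1 red point on each side of 0. The left and middle panels share the Control arrays, the left and right panels the EBF1 arrays, and the middle and right panels the Pax5 arrays.

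Whether Pax5 changed these genes was asked in the same way, against the same Control arrays. Of the 51 members, 0 were called by limma, where 4.29% of all genes were called (2.14% higher and 2.15% lower). At an unadjusted p under 0.05 there were 7 members, and 20.8% of all genes. When eBayes was run with a trend and robustly, 7 members were called, beside 1721 of the 16252 genes tested. Without those options, all 95% intervals of the members lay between -0.63 and 0.70.

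The members closest to the threshold were Mcm3 and E2f2, which differed in opposite directions. Mcm3, a subunit of the MCM ring, lay at 8.44 and 8.58 in Control, at 8.55 and 8.46 in EBF1 cells and at 8.17 and 8.05 in Pax5 cells. Both Pax5 arrays were below the other 4 (Pax5 minus Control -0.40, SE 0.09, limma adjusted p = 0.072). E2f2, an activating E2F factor, lay at 5.74 on both Control arrays, at 5.95 and 6.18 in EBF1 cells and at 6.26 and 6.09 in Pax5 cells. The Control arrays were lowest, by 0.33 against EBF1 (adjusted p = 0.16) and by 0.44 against Pax5 (adjusted p = 0.09). Mcm5, Lig1 and Mcm2 also had both Pax5 arrays below both Control arrays, with differences of -0.36 (adjusted p = 0.16), -0.30 (0.16) and -0.25 (0.15). This order held for 11 of the 31 replication members, and for 5064 of the 16252 genes tested. The reverse order held for 7 of the 31 and for 3266 genes. The replication members had a median of -0.06, with 11 of 31 above 0, and the mitosis members one of 0.02, with 12 of 20 above 0. Over all genes the median was -0.04 and the share above 0 was 41.9%.

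The direct comparison of EBF1 with Pax5 cells held most of the calls. Genes of the helicase (Mcm3, Mcm5, Mcm10, Gins2) and of strand synthesis and joining (Pold1, Fen1, Lig1, Rfc4) were higher in EBF1 cells, 1.28 to 1.49-fold. Of the mitosis genes, Kif23, a motor of cytokinesis, was higher and Bub1, a spindle checkpoint kinase, was lower. Called were 10 of 51 members (19.6%), 9 higher and 1 lower, where 13.9% of all genes were called, 8.69% higher and 5.2% lower. Of the 31 replication members 8 were higher and 0 lower (25.8%), and of the 20 mitosis members 1 was higher and 1 lower (10.0%). The difference between replication and mitosis genes was not itself tested.

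**Figure D4:**
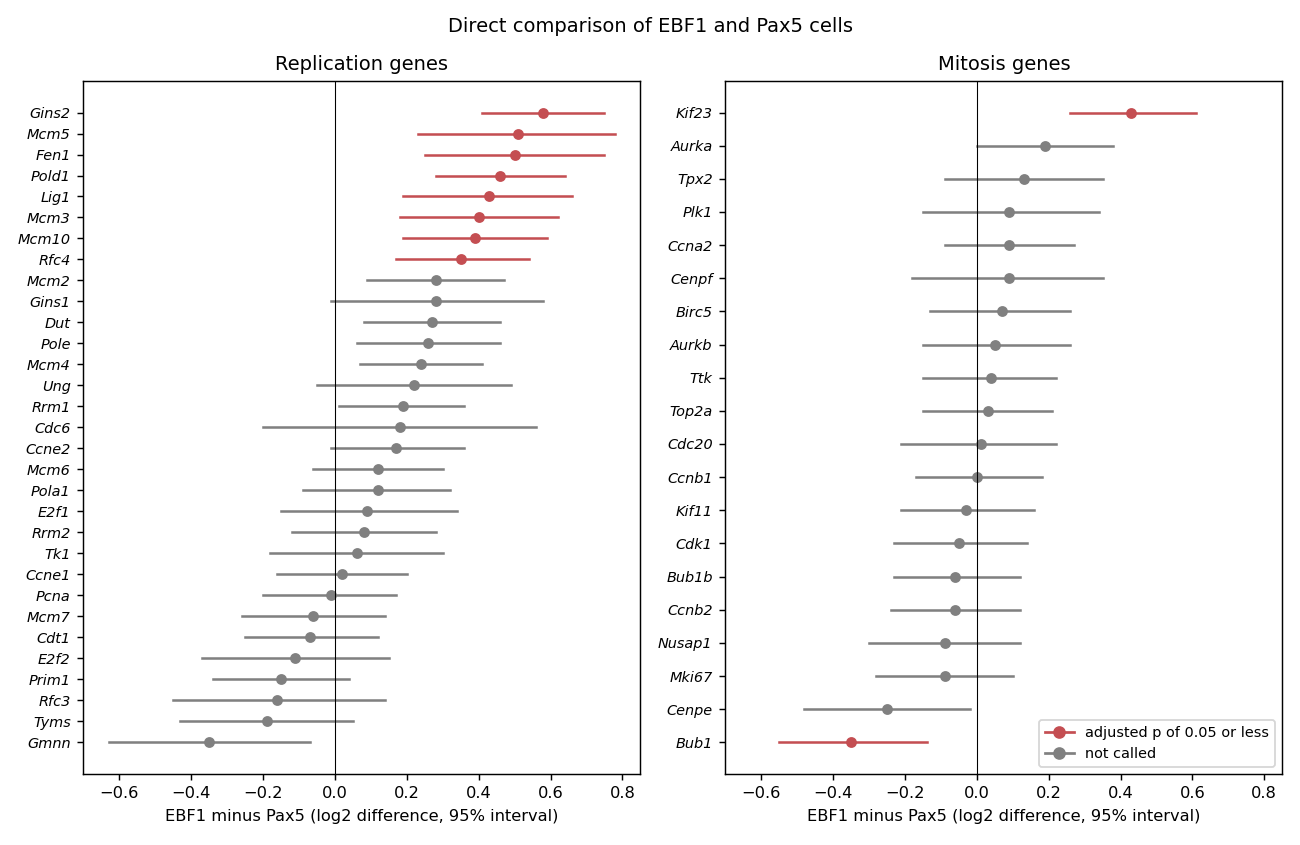
EBF1 minus Pax5 difference (log2, horizontal axis) with its 95% interval for every replication member (left) and mitosis member (right), in order of size; red marks an adjusted p of 0.05 or less. The 8 red replication genes run from Rfc4 (0.35) to Gins2 (0.58), and Kif23 (0.43) and Bub1 (-0.35) stand at the ends of the mitosis panel.

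Among the licensing and helicase genes, Gins2 had the values given above and exceeded Pax5 cells by 0.58 (SE 0.07, limma adjusted p = 0.0054). Mcm5, whose promoter is shown above with its E2F cores, lay at 7.75 and 7.86 in Control, at 7.84 and 8.07 in EBF1 cells and at 7.54 and 7.36 in Pax5 cells. EBF1 and Control overlapped, both Pax5 arrays were lowest, and EBF1 exceeded Pax5 by 0.51 (SE 0.11, adjusted p = 0.036). Mcm3 had the same order, with EBF1 and Control overlapping, and a difference of 0.40 (SE 0.09, adjusted p = 0.037). Mcm10 was highest on the EBF1 arrays, with Control and Pax5 overlapping, and differed by 0.39 (SE 0.08, adjusted p = 0.029). Mcm2 (0.28, adjusted p = 0.065) and Mcm4 (0.24, adjusted p = 0.076), further subunits of the ring, had EBF1 arrays above Pax5 arrays without passing. Mcm6 (0.12) and Mcm7 (-0.06), of the same ring, lay nearer to 0, as did Cdt1 (-0.07), a loader of the ring. Cdc6, the other loader, differed by 0.18, but its Pax5 arrays, at 6.34 and 6.82, were the lowest and the highest of the 6.

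Gmnn, whose product geminin holds Cdt1 inactive, depended on the probe set. Its brightest probe set lay at 7.40 and 7.45 in Control, 7.12 and 6.90 in EBF1 cells and 7.48 and 7.24 in Pax5 cells, with the EBF1 arrays lowest (EBF1 minus Control -0.42, limma adjusted p = 0.11). The other lay at 7.03 and 7.02, then 7.06 and 7.04, then 6.79 and 7.18, and its EBF1 difference from Control was 0.02. The first transcript that the annotation gives for the brightest one belongs to another gene, so the level of Gmnn is uncertain.

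Among the genes of strand synthesis and joining, Pold1 exceeded Pax5 cells by 0.46 (SE 0.07, limma adjusted p = 0.013). Fen1, the flap endonuclease that trims lagging-strand fragments, lay at 6.58 and 6.64 in Control, at 6.93 and 6.90 in EBF1 cells and at 6.54 and 6.29 in Pax5 cells. Its EBF1 arrays were the highest of the 6, and the difference from Pax5 was 0.50 (SE 0.10, adjusted p = 0.028). A second Fen1 probe set differed by 0.32 without passing (adjusted p = 0.15). Lig1, the ligase that seals those fragments, lay at 7.53 and 7.52 in Control, at 7.62 and 7.68 in EBF1 cells and at 7.34 and 7.12 in Pax5 cells. The 3 groups did not overlap, with Control between the others, and EBF1 exceeded Pax5 by 0.43 (SE 0.10, adjusted p = 0.036). Rfc4 lay at 7.76 and 7.75, then 8.05 and 8.04, then 7.63 and 7.75 in Control, EBF1 and Pax5 cells, so that the EBF1 arrays stood alone (0.35, SE 0.08, adjusted p = 0.034). Pole, the catalytic subunit of the leading-strand polymerase, did not pass (0.26, adjusted p = 0.093). Pcna, the sliding clamp, differed by -0.01, and Pola1 (0.12), Rfc3 (-0.16) and Prim1 (-0.15), of the priming polymerase and the clamp loader, did not pass either.

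Of nucleotide supply and uracil removal, 0 of 6 members were called between EBF1 and Pax5 cells, where 13.9% of all genes were. Dut, which hydrolyses dUTP, lay at 7.85 and 7.91 in Control, 8.14 and 8.03 in EBF1 cells and 7.83 and 7.81 in Pax5 cells, with the EBF1 arrays highest (EBF1 minus Pax5 0.27, SE 0.08, limma adjusted p = 0.075). Rrm2, whose EBF1 and Pax5 arrays overlapped, differed by 0.08 (95% interval -0.12 to 0.28). The brightest Tk1 probe set is placed on chromosome 8 by the annotation, whereas the thymidine kinase gene lies on chromosome 11, and it differed by -0.02 between EBF1 and Control. The Tk1 probe set placed on chromosome 11 lay at 7.37 and 7.36 in Control, 7.65 and 7.68 in EBF1 cells and 7.60 and 7.50 in Pax5 cells. Its EBF1 and Pax5 arrays were all above the Control arrays, by 0.30 in EBF1 cells (adjusted p = 0.084) and 0.19 in Pax5 cells (adjusted p = 0.23). Of the E2F and E cyclin genes 0 of 4 were called between EBF1 and Pax5 cells, beside the same 13.9%. Lists of 6 and 4 genes are too short for these counts to be set apart from that share. Ccne2, an E cyclin that activates Cdk2, lay at 7.91 and 7.95 in Control, 8.07 and 7.99 in EBF1 cells and 7.89 and 7.83 in Pax5 cells, with a difference of 0.17 (adjusted p = 0.20) on a probe set that also carries Ints8.

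Of the mitosis members, Kif23 and Bub1 were called. Kif23 lay at 8.86 and 8.81 in Control, at 9.07 and 9.09 in EBF1 cells and at 8.63 and 8.66 in Pax5 cells. The groups did not overlap, with Control in the middle, and EBF1 exceeded Pax5 by 0.43 (SE 0.07, limma adjusted p = 0.014). Neither difference from Control passed (0.25, adjusted p = 0.12, and -0.19, adjusted p = 0.21). Bub1 had the opposite order, at 8.80 and 8.87 in Control, 8.67 and 8.56 in EBF1 cells and 8.91 and 9.01 in Pax5 cells. EBF1 lay below Pax5 by 0.35 on the log2 scale (difference -0.35, SE 0.08, adjusted p = 0.044). Cenpe, a kinetochore motor, lay at 7.04 and 7.19, then 7.07 and 6.90, then 7.25 and 7.22 in Control, EBF1 and Pax5 cells, with the Pax5 arrays highest (-0.25, adjusted p = 0.14).

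The mitotic cyclins did not pass. Ccna2, the cyclin of S phase and G2, lay at 9.41 and 9.43 in Control, 9.51 and 9.53 in EBF1 cells and 9.47 and 9.39 in Pax5 cells. Ccnb1, the cyclin that drives entry into mitosis with Cdk1, lay at 8.94 and 8.91, then 9.03 and 9.02, then 8.99 and 9.05. Their EBF1 minus Pax5 differences were 0.09 and 0.00, with 95% intervals of -0.09 to 0.27 and -0.17 to 0.18. The brightest Ccnb1 probe set is placed on chromosome 7 and the gene on chromosome 13, and all 3 Ccnb1 probe sets gave differences from -0.04 to 0.01. Aurka, a kinase of the spindle poles, lay at 8.10 and 8.02 in Control, 8.25 and 8.17 in EBF1 cells and 7.98 and 8.05 in Pax5 cells, with the EBF1 arrays highest (0.19, adjusted p = 0.17). The 18 mitosis members that did not pass had differences from -0.25 to 0.19, and 95% intervals from -0.48 to 0.38. They include the proliferation marker Mki67 and the topoisomerase gene Top2a.

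In this comparison the replication members had a median of 0.18, with 23 of 31 above 0, and the mitosis members one of 0.02, with 12 of 20 above 0, beside 0.04 and 56.8% over all genes. Both EBF1 arrays lay above both Pax5 arrays for 18 of 31 replication and 6 of 20 mitosis members, and for 33.9% of all genes. By role the median was 0.26 for licensing and helicase, 0.26 for polymerases, clamp and strand joining, 0.13 for nucleotide supply, 0.06 for E2F and E cyclins, -0.02 for mitotic cyclins and Cdk1, 0.04 for mitotic kinases and 0.00 for spindle and chromosome proteins. An E2F core was present in 5 of the 7 called replication members with a promoter window and in 9 of the 18 that were not called. The replication median was 0.15 without EBF1 1, 0.18 without EBF1 2 or either Control array, 0.19 without Pax5 1 and 0.16 without Pax5 2. The member calls did not hold when either EBF1 array was left out. With the spread of the EBF1 and Pax5 arrays alone 3 members were called, beside 1166 of the 16252 genes tested. With a repeated quantile normalization 6 members were called, beside 2122 genes.

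Genes of the same pathways beyond the members were counted in lists chosen for their roles. Of 44 other replication genes, 3 rose and 0 fell with EBF1 against Control, with a median of 0.06. This share (6.8%) is near the 5.62% of all genes. They were Uhrf1, which recruits the maintenance DNA methyltransferase (0.60, limma adjusted p = 0.011), the histone chaperone gene Asf1b (0.65, adjusted p = 0.021) and Pold2 (0.47, adjusted p = 0.039), the partner of Pold1 in polymerase delta. Uhrf1 lay at 8.78 and 8.85 in Control, 9.44 and 9.38 in EBF1 cells and 8.83 and 8.76 in Pax5 cells. Pold2 lay at 8.21 and 8.25, then 8.74 and 8.65, then 8.23 and 8.06, and so, like Pold1, was highest on the EBF1 arrays. With Pax5, 1 rose, the clamp-loader gene Rfc2 (0.49, adjusted p = 0.022), and 0 fell (2.3%, against 4.29% of all genes).

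Between EBF1 and Pax5 cells 6 of these 44 genes were higher and 1 was lower, with a median of 0.15. This share (15.9%) is near the 13.9% of all genes. Orc1, the largest subunit of the origin recognition complex, had the widest difference of the replication genes, members included, at 1.13 (SE 0.14, limma adjusted p = 0.0063). It lay at 5.89 and 5.98 in Control, 6.47 and 6.42 in EBF1 cells and 5.53 and 5.10 in Pax5 cells, so that the groups did not overlap and Control was in the middle. Orc2, Pold2, Uhrf1, Asf1b and Dscc1, a subunit of an alternative clamp loader, were higher by 0.33 to 0.64. Rfc2 was lower in EBF1 cells by 0.67 on the log2 scale (difference -0.67, adjusted p = 0.0041), against the direction of Rfc4, with 8.53 and 8.61 in Control, 8.42 and 8.38 in EBF1 cells and 9.08 and 9.06 in Pax5 cells.

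Of 54 other mitosis genes, 1 rose with EBF1 and 0 fell (1.9%, against 5.62% of all genes), and 0 were called with Pax5 (4.29% of all genes). Gtse1, which encodes a microtubule-binding protein of G2 and S phase that restrains p53, lay at 6.10 and 6.12 in Control, 7.10 and 7.17 in EBF1 cells and 5.99 and 5.80 in Pax5 cells. Its EBF1 arrays stood apart by 1.02 from Control (SE 0.09, limma adjusted p = 0.0037) and by 1.23 from Pax5 (SE 0.09, adjusted p = 0.0011). Between EBF1 and Pax5 cells the chromosome-arm motor gene Kif22 was also higher (0.42, adjusted p = 0.015) and Spc25, a subunit of the NDC80 kinetochore complex, was lower (-0.51, adjusted p = 0.013). The 3 calls are 5.6% of the list, below the 13.9% of all genes. The median of the list was 0.01, 0.03 and 0.00 in the 3 comparisons. Of 21 E2F, Rb and DREAM regulators, 0 were called against Control with either factor, and 3 were called between EBF1 and Pax5 cells (14.3%, near the 13.9% of all genes). E2f3 (0.31, adjusted p = 0.045, on a probe set with 2 symbols) and Lin9 (0.51, adjusted p = 0.019), a subunit of the complex that binds CHR elements, were higher in EBF1 cells. Rb1 (-0.41, adjusted p = 0.026), the repressor of E2F factors, was lower. Of 20 tested genes of the S-phase checkpoint and fork repair, 0 were called against Control with either factor (5.62% and 4.29% of all genes). Between EBF1 and Pax5 cells their median was 0.14, with 13 of 20 above 0, beside 0.04 and 56.8% over all genes. Among those called between EBF1 and Pax5 cells, the helicase gene Blm was lower in EBF1 cells (-0.34, adjusted p = 0.037).

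The authors' own tests of the same values, in the authors' deposited table, were read beside these. By its step-up p-values, 1, 0 and 4 of the 51 members passed 0.05 for EBF1 against Control, Pax5 against Control and EBF1 against Pax5. Of all 28350 probe sets, 6, 20 and 449 passed in the same order. At an unadjusted p under 0.05 the authors' deposited table held 10, 12 and 18 members, where 13.2%, 13.1% and 18.3% of all probe sets passed.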

How the data were processed

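RNA of 6 samples, 50 ng each, was amplified with the NuGEN Ovation Pico WTA System V2 and hybridised to Affymetrix arrays, per the labels' protocols. The authors used RMA and Partek 6.5, per the submitters' processing notes. The deposited log2 values are RMA expression values per probe set, already normalized between arrays. The sources used here do not give the RMA options, the annotation version or the build. Per the file headers, the deposited table adds the p-value and step-up p-value of each pair of groups and the ratio of their means. The authors' ratios equalled the folds computed here to within a relative difference of 2.1e-05.

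Of 28350 probe sets, 25254 carried a gene symbol, 3269 of them with several symbols in the annotation, and 3096 carried none. The brightest probe set stood for each of 21759 symbols. Genes had to exceed an array's 30th percentile on 2 or more arrays, and 16252 did. They were fitted with lmFit and eBayes (limma 3.58.1, R 4.3.3) in 1 model with a mean per group (residual degrees of freedom 3, prior 3.16). Two-sided p-values were adjusted over all genes tested by Benjamini-Hochberg and called at 0.05. Differences are log2, with the SE of limma and 2 arrays per group. On simulated data for EBF1 minus Control with 16252 genes, only 50 genes were changed at each of the sizes 0.5, 1, 2 and 3. Called were 12% of those changed by 0.5, 74% of those changed by 1 and 98% of those changed by 2, with 7 false calls. Changes of 0.5 were thus often missed in that setting. More genes were called in the data (914 for this comparison), so these shares need not hold there. The number of arrays limits the precision.

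Members, lists and tests were chosen with earlier results of these data known. All 51 members may be named. Values on every array are given for members called in any comparison and for the 2 in each role group with the widest change, and pathway genes are named when called, except 1 that is not reported here; the values of the second Gmnn and the chromosome 11 Tk1 probe sets, and the members near the threshold, were added after they were seen. Promoter sequences come from RefSeq (GRCm38.p6). The chromosomes of genes and probe sets come from the annotation in the authors' deposited table. Arrays of the same number shared little deviation between groups (correlations of deviations from the group means 0.013, 0.008 and -0.01). This does not show whether they were prepared together, and the labels state no pairing. Alternatives were other filters, probe-set choices, normalization, a block, other spread estimates and leaving out each array.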

Additional observations from a re-analysis of the deposited data

How the results depend on the processing

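With the replicate number as a block, 2, 0 and 4 members were called for EBF1 minus Control, Pax5 minus Control and EBF1 minus Pax5. The genes called were 604, 456 and 1844 of 16252 in the same order. The labels do not state that the numbers pair the samples. For EBF1 minus Control (2 members, 914 genes), the filter at the 50th percentile gave 5 and 1385, and the trend and robust options 8 and 1865. The 2 groups alone gave 4 and 1509, and probe sets with 1 symbol 1 member and 815 of 14601 genes. The median of the replication members was 0.07 after a repeated quantile normalization. For Pax5 minus Control (0 and 697), the same settings gave 1 and 1056, 7 and 1721, and 259 genes with the 2 groups alone. The replication median was -0.03 with the mean of probe sets or with probe sets on the gene's own chromosome and -0.02 after quantile normalization, where the mitosis median was 0.07. For EBF1 minus Pax5 (10 and 2257), 5 members and 1671 of 21759 genes were called with no filter. After quantile normalization 6 members and 2122 genes were called, with trend and robust 16 and 3549, and with the 2 groups alone 3 and 1166. The replication median was 0.12 after quantile normalization and 0.15 with probe sets of 1 symbol, and the mitosis median -0.05 after quantile normalization. Leaving out 1 array gave 0 to 4, 0 to 2 and 0 to 11 members, and 115 to 1509, 67 to 2539 and 435 to 4114 genes. The replication medians then ran from 0.07 to 0.10, -0.06 to -0.03 and 0.15 to 0.19, and the mitosis medians from -0.01 to 0.04, -0.02 to 0.04 and 0.00 to 0.03. Of the members called between EBF1 and Pax5, Pold1 and Kif23 passed in 13 of 15 settings and Gins2 in 12 of 14, all but those without an EBF1 array. Fen1 passed in 10 of 15, Mcm10 in 8, Lig1 and Bub1 in 7, Mcm3 and Mcm5 in 6, and Rfc4 in 6 of 14. No member called in the main fit changed sign in these settings. Cdc6, which was not among those, ran from -0.06 to 0.42 between EBF1 and Pax5. The cause of the changes was not tested. Settings by own chromosome or by 1 symbol were chosen after seeing the data. Leaving out an array of the group outside a comparison repeats the fit with the 2 groups alone. The counts of settings thus hold that fit more than once, and these settings are not separate checks.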
